A study of Mus musculus with 4 samples.

Results

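Skeletal muscle contractile and metabolic genes were followed across 4 arrays of cultured splenic dendritic cells (DC). The genes were taken from a list of 36 that encode sarcomere proteins, proteins of muscle calcium handling and muscle enzymes. Of these, 33 had at least 1 probe set annotated with their symbol alone, and these 33 genes were covered by 60 of the 45037 probe sets that are not controls. The nebulin gene Neb, the fast myosin-binding protein gene Mybpc2 and the muscle AMP deaminase gene Ampd1 were not analysed here. The 33 genes are 13 of fast fibres, 6 of slow fibres and heart, and 14 that were counted under both fibre types, out of 17097 genes measured in all. DC of mice that lack the scavenger receptor MARCO (MARCO-/-) or of wild type mice (WT) were cultured overnight with lipopolysaccharide (LPS), a bacterial ligand of TLR4, or with PBS, which gives the groups MARCO-/- LPS, WT LPS, MARCO-/- PBS and WT PBS with 1 array each. The labels give all 4 groups the genetic background C56BL/6, which the methods write as C57BL/6, and the WT mice were bought from a vendor as age- and sex-matched young adults. The cells were purified from digested spleens by CD11c positive selection and pooled over several mice. The sources used here do not say which pool gave the RNA of each array, so any 2 arrays may come from different mice.

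Skeletal muscle contracts when calcium released from its internal store binds troponin on the thin actin filament and lets the myosin of the thick filament pull on it. Fast and slow fibres use different genes for the same parts, so that myosin heavy chains, troponins and the calcium pump exist as fast isoforms and as slow isoforms, many of which the heart shares. Creatine kinase, muscle glycolytic enzymes and myoglobin supply energy and oxygen. Dendritic cells use other actins, myosins and calcium pumps, and their spleen of origin has no skeletal muscle of its own.

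Intensities were normalized by the authors with RMA and deposited on a linear scale. Each gene is given by its brightest probe set, and ratios between arrays are on the log2 scale without an added constant. The median of all intensities was 4.86, and values near or below it are treated as background. Where the dimmer value of a pair lay below this median, the median was put in its place and the fold is written as at least that size. With 1 array per group there is no replicate error and no test, so genes are called at a fold of 2, and the number of arrays limits the precision. Marco itself had an intensity of 4.25 in MARCO-/- LPS and 3.15 in WT LPS, and 3.95 in MARCO-/- PBS and 8.05 in WT PBS, so that WT PBS alone was above the median. The sources used here do not say whether the Marco probe set falls inside the deletion. All 8 DC markers, among them H2-Aa and Cd74 of MHC class II, were above the median on at least 1 array, and none differed 2-fold between genotypes. Itgax, which encodes CD11c, had 16.4 in MARCO-/- LPS and 12.9 in WT LPS, against 621 in MARCO-/- PBS and 548 in WT PBS. In such bulk RNA, fewer cells of a type and less RNA per cell cannot be told apart.

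The promoters of a few members are shown because Acta1, Myh4 and Tnnc2 were highest in WT LPS and next in MARCO-/- PBS, while Tnnc1, the slow and cardiac counterpart of Tnnc2, did not. They are RefSeq sequences of build GRCm38.p6, and they run from upstream of the gene start to shortly after it. Capitals mark CANNTG, the E-box that myogenic factors such as MYOD1 can bind, TATAAA, and the CArG box of serum response factor, each searched on both strands.
Acta1 (chr8:123894726-123895025, minus strand): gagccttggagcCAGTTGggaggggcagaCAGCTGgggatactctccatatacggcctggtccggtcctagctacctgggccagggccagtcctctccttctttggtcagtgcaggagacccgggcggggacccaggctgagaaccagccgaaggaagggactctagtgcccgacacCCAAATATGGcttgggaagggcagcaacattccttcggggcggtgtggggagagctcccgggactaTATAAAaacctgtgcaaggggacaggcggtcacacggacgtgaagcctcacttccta
Myh4 (chr11:67237562-67237861, plus strand): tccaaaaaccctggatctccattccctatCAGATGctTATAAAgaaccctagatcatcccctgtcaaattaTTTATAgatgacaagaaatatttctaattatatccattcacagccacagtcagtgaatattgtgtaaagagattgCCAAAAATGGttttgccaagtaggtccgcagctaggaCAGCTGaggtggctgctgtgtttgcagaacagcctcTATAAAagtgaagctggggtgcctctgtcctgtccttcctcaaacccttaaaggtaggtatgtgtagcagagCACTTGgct
Tnnc2 (chr2:164779685-164779984, minus strand): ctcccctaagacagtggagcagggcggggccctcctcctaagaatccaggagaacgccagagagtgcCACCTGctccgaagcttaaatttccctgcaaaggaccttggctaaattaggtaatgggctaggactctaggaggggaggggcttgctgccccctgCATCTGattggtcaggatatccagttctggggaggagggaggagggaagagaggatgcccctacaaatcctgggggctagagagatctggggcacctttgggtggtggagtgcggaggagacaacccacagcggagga
Tnnc1 (chr14:31208062-31208361, plus strand): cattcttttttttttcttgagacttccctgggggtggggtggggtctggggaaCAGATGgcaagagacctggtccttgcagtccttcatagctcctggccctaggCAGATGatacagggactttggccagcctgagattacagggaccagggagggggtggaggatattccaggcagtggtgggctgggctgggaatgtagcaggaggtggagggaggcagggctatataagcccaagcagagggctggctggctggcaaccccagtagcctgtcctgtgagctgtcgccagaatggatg

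The promoter of Acta1 held 2 E-boxes, 1 TATAAA and 1 CArG box, and that of Myh4 held 3, 3 and 1. Those of Tnnc2 and Tnnc1 each held 2 E-boxes, with neither of the other motifs. Promoters were listed for 28 of the 36 genes, as 34 sequences. CANNTG was in 28 of these 34, against 72.3% of all 32851 promoters. TATAAA was in 7 of the 34 (13.6% of all) and the CArG box in 5 of the 34 (1.63% of all), which belong to Acta1, Actc1, Ldb3 and Myh4. The MEF2 box was in 1, that of Ttn (0.557% of all). Some CArG and MEF2 boxes contain TATAAA, so these motifs can overlap, and a match does not show that a factor binds.

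On the WT LPS array 25 of the 33 genes were above the median of all intensities, against 9 on the MARCO-/- LPS array. With PBS, 20 were above it in MARCO-/- and 11 in WT. Over all probe sets the array medians were 4.72 in MARCO-/- LPS, 4.97 in WT LPS, 4.90 in MARCO-/- PBS and 4.84 in WT PBS. WT LPS was the highest array for 24 of the 33 genes, against 32.6% of all genes. MARCO-/- LPS was the highest for none, against 29.2% of all genes. It was the lowest for 17, with ties for the lowest value in Casq1 and Pgam2. No share of all genes was computed for the lowest array. For 20 of the 33 genes WT LPS was highest and MARCO-/- PBS next, an order held by 8.75% of all genes, and 11 of the 13 fast-fibre genes were among them. This order joins LPS in one genotype with PBS in the other, so it follows neither the genotype nor the treatment. There were 7 genes at or below the median on all 4 arrays: Casq1, Pgam2, Pygm, Myh7, Tnnc1, Mybpc1 and Actc1.

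**Figure D1:**
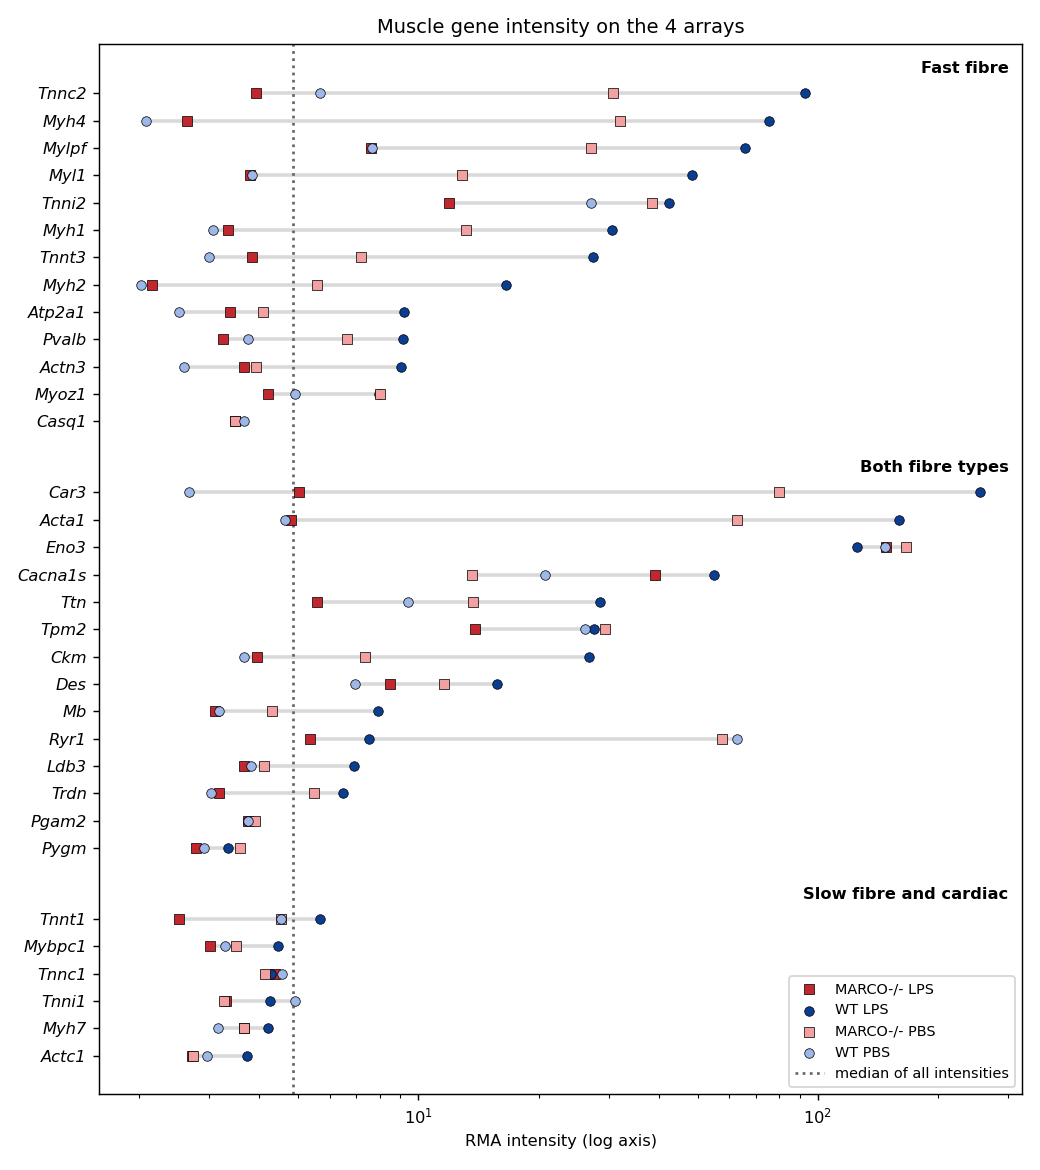
RMA intensity (log axis) of the 33 measured muscle genes, grouped by fibre type and sorted by the WT LPS value; each point is 1 array and the dotted line is the median of all intensities, 4.86. For most fast-fibre genes the dark blue WT LPS point lies farthest right and the light red MARCO-/- PBS point next, while the slow-fibre and cardiac genes stay near the dotted line.

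In PBS cultures 10 of the 33 genes exceeded their WT level by 2-fold or more in MARCO-/- DC and 0 were below it by as much, where 0.760% of all genes were higher and 0.287% lower. The higher genes were 7 of fast fibres (Myh4, Myh1, Myh2, Tnnc2, Tnnt3, Mylpf and Myl1) together with Acta1, Ckm and Car3. The median log2 ratio was 0.54 over the 33 genes and 0.01 over all genes. Ckm was just past 2-fold, with a log2 ratio of 1.01, and was under it after quantile normalization, at 0.97. With values under the median raised to it the count was 7, as Ckm, Tnnt3 and Myh2 fell under 2-fold. The count was 4 with 16 added to every intensity, and 6 of 28 genes without probe sets ending in x_at, s_at or a_at. The latter setting left out Acta1, Myl1 and Tnnt3, whose only probe sets end in a_at.

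With LPS the direction was the opposite: 18 of the 33 genes lay 2-fold or more below their WT level in MARCO-/- DC, and 0 lay as far above it. Of all genes, 1.31% were lower and 2.09% higher. The 10 genes higher in MARCO-/- DC in PBS cultures were among the 18, and all genes held 0.345% with both calls. The other 8 were Tnni2, Actn3, Atp2a1, Pvalb, Tnnt1, Mb, Ttn and Trdn. The median log2 ratio was -1.18 over the 33 genes and 0.00 over all genes. With values under the median raised to it 12 genes were past 2-fold, and with 16 added to every intensity 11 were. Trdn had a log2 ratio of -1.04, and of -0.96 with arrays centred on their medians. Without probe sets ending in x_at, s_at or a_at Trdn was at 0.022, from a probe set below the median on all arrays. By its brightest probe set, Tpm2 at -0.99 was just short of the threshold.

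The ratios of LPS over PBS also ran in opposite directions. In WT DC 18 genes gained 2-fold or more with LPS over PBS and 1 lost as much, against 6.20% and 8.31% of all genes. In MARCO-/- DC 1 gene was higher with LPS and 13 were lower, against 6.32% and 5.98% of all genes. Median log2 ratios of LPS over PBS were -0.84 in MARCO-/- and 1.18 in WT DC. These comparisons use the same 4 arrays as those between genotypes and are not independent of them. With 16 added to every intensity, 9 genes were higher in WT, and 5 were lower in MARCO-/-.

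**Figure D2:**
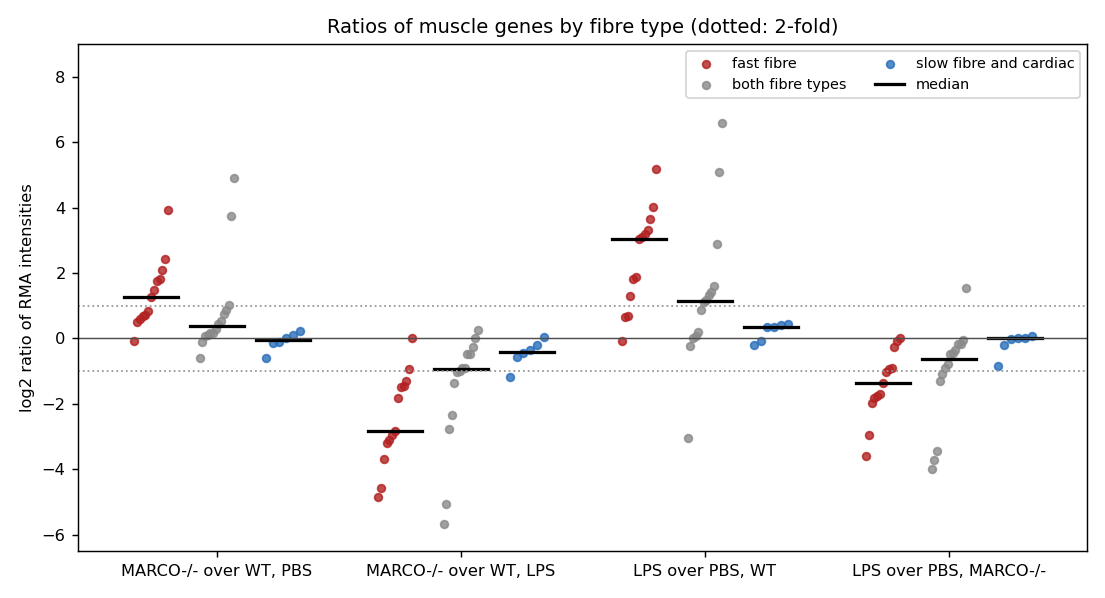
log2 ratios of the 33 muscle genes in each comparison; each point is 1 gene, coloured by fibre type, black bars are medians and dotted lines mark 2-fold. Fast-fibre genes have medians of 1.26 and -2.83 for MARCO-/- over WT with PBS and with LPS, and slow-fibre and cardiac genes stay between -1.18 and 0.22 in these comparisons.

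Fast-fibre genes had larger ratios than slow-fibre and cardiac genes. For MARCO-/- over WT with PBS, the median log2 ratio was 1.26 for 13 fast-fibre genes and -0.06 for 6 slow-fibre and cardiac genes. With LPS it was -2.83 for the fast genes and -0.41 for the slow and cardiac genes. The 14 genes counted under both fibre types had medians of 0.37 with PBS and -0.95 with LPS. The fast minus slow and cardiac difference was 1.32 with PBS and -2.42 with LPS. It was 0.56 and -1.83 with values below the median raised to it. Without probe sets ending in x_at, s_at or a_at it was 0.72 and -1.29. Car3 and Mb, among the 14, are known mainly from slow fibres, and counting them as slow-fibre genes, a choice made after the values were seen, gave 1.22 and -2.32. Of the slow and cardiac genes, Tnnt1 alone passed 2-fold, with 2.52 in MARCO-/- LPS and 5.69 in WT LPS. Only 2 of these 6 genes were above the median on any array, Tnnt1 and Tnni1, so a difference in the others was not detectable at these signals. Adding 8 cardiac markers to the slow and cardiac genes gave medians of 0.02 with PBS and -0.25 with LPS, and none of the 8 was past 2-fold between genotypes.

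Of the thick filament genes, 5 of 7 were past 2-fold in every comparison before values below the median were raised to it. Myh4, the heavy chain of the fastest (type IIb) fibres, had an intensity of 2.63 in MARCO-/- LPS and 75.6 in WT LPS. With PBS it had 31.9 in MARCO-/- and 2.09 in WT. Myh4 was therefore at least 6.57-fold higher in MARCO-/- with PBS and at least 15.5-fold lower with LPS. Myh1, the heavy chain of type IIx fibres, had 3.34 in MARCO-/- LPS and 30.6 in WT LPS, and 13.2 in MARCO-/- PBS and 3.06 in WT PBS. Myh2 of type IIa fibres had 2.15 in MARCO-/- LPS and 16.6 in WT LPS, and 5.58 in MARCO-/- PBS and 2.03 in WT PBS. Between genotypes Myh2 is therefore bounded at only 1.15-fold or more with PBS, and at 3.42-fold or more with LPS. These fast heavy chain genes lie next to each other in the RefSeq annotation and are close in sequence, so their probe sets may share signal. Without probe sets ending in x_at, s_at or a_at, Myh1 was under 2-fold, with log2 ratios of 0.26 with PBS and -0.99 with LPS. Myh7, the slow and cardiac heavy chain, stayed between 3.14 and 4.21 on all arrays.

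The fast myosin light chains had the same order of arrays as the fast heavy chains, with WT LPS highest and MARCO-/- PBS next. Mylpf, the regulatory light chain of fast fibres, had intensities of 7.63 in MARCO-/- LPS and 65.6 in WT LPS, which is 8.60-fold lower in MARCO-/-. With PBS it had 27.0 in MARCO-/- and 7.67 in WT, 3.52-fold higher in MARCO-/-. All 4 values of Mylpf were above background, so neither fold is set by the floor. Myl1, the essential light chain of fast fibres, had 3.79 in MARCO-/- LPS and 48.4 in WT LPS, and 12.9 in MARCO-/- PBS and 3.83 in WT PBS. Mybpc1, the slow form of myosin-binding protein C, was between 3.01 and 4.45, below the median on all arrays. Its fast counterpart Mybpc2 was not analysed, so the forms of this protein could not be compared.

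Of 9 thin filament genes, 3 were higher in MARCO-/- with PBS and 5 were lower with LPS. Acta1, the actin of skeletal muscle, had an intensity of 4.80 in MARCO-/- LPS and 159 in WT LPS, at least 32.8-fold lower in MARCO-/-. With PBS it had 62.7 in MARCO-/- and 4.65 in WT, at least 12.9-fold higher in MARCO-/-. Tnnc2, the calcium sensor of fast troponin, had 3.92 in MARCO-/- LPS and 92.7 in WT LPS, and 30.7 in MARCO-/- PBS and 5.69 in WT PBS. It was 5.40-fold higher in MARCO-/- with PBS and at least 19.1-fold lower with LPS. Tnnt3, the tropomyosin-binding subunit of fast troponin, had 3.84 in MARCO-/- LPS and 27.4 in WT LPS, and 7.18 in MARCO-/- PBS and 2.99 in WT PBS. For these genes the MARCO-/- LPS and WT PBS values were the lower pair, and Tnnt3 was above the median by 1.48-fold in MARCO-/- PBS.

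Tnni2, the inhibitory subunit of fast troponin, differed from this. It had 11.9 in MARCO-/- LPS and 42.4 in WT LPS, and 38.5 in MARCO-/- PBS and 27.1 in WT PBS, so 3 arrays were alike within 1.57-fold and MARCO-/- LPS was low. Tpm2, beta tropomyosin, which smooth muscle also uses, had the same shape, with 13.8 in MARCO-/- LPS and 27.5 in WT LPS, and 29.3 in MARCO-/- PBS and 26.1 in WT PBS. By this probe set Tpm2 was 1.98-fold lower in MARCO-/- with LPS. Its other probe sets had log2 ratios of -1.60, -1.75 and 0 in that comparison, the last with all values below the median. The probe set at -1.75 had 8.94 in WT LPS and next 4.01 in MARCO-/- PBS, the order of the fast-fibre genes. The genes of Tnni2 and Tnnt3 lie near each other with 1 coding gene between them, but Tnnt3 was past 2-fold between genotypes with PBS and Tnni2 was not. In MARCO-/- DC, Tnni2 was 3.23-fold and Tpm2 2.11-fold lower with LPS than with PBS.

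Of the slow and cardiac isoforms of the thin filament, Tnnt1, the slow counterpart of Tnnt3, was lower in MARCO-/- with LPS (2.52, against 5.69 in WT LPS) and had 4.52 in both MARCO-/- PBS and WT PBS. Tnnc1, Tnni1 and Actc1 were under 2-fold in each comparison. Tnnc1 had 4.37 in MARCO-/- LPS and 4.28 in WT LPS, and 4.14 in MARCO-/- PBS and 4.55 in WT PBS. Tnni1, the slow inhibitory subunit, had 3.30 in MARCO-/- LPS and 4.25 in WT LPS, and 3.27 in MARCO-/- PBS and 4.92 in WT PBS. Actc1, the actin of the heart, had its highest value at 3.72 in WT LPS and lay between 2.71 and 2.95 on the other arrays. Apart from Tnnt1 in WT LPS and Tnni1 in WT PBS these values are below the median, and the probe sets of the slow isoforms may differ in sensitivity from those of the fast isoforms, so each gene is compared with itself across arrays.

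**Figure D3:**
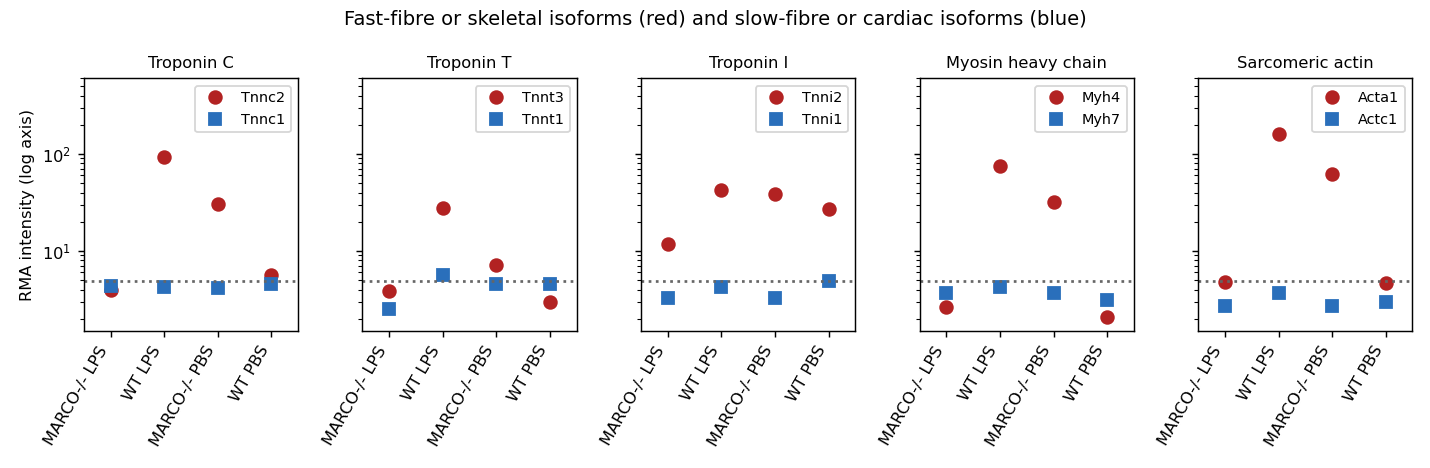
RMA intensity (log axis) of 5 pairs of isoforms on the 4 arrays, with the fast-fibre or skeletal gene in red, the slow-fibre or cardiac gene in blue and the median of all intensities dotted; each gene is to be compared with itself across arrays. Tnnc2, Tnnt3, Myh4 and Acta1 are high on the WT LPS and MARCO-/- PBS arrays, and the blue genes lie between 2.52 and 5.69 on all arrays.

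Genes of the Z disc and of the elastic and intermediate filaments had smaller differences. Ttn, which encodes the giant spring protein titin, had 5.58 in MARCO-/- LPS and 28.5 in WT LPS, 5.12-fold lower in MARCO-/-. With PBS it had 13.7 in MARCO-/- and 9.42 in WT, under 2-fold. Actn3, the alpha-actinin of fast fibres, had 3.67 in MARCO-/- LPS and 9.04 in WT LPS, and 3.92 in MARCO-/- PBS and 2.59 in WT PBS, so that only WT LPS was above background and the difference with LPS is bounded at 1.86-fold or more. Des, the intermediate filament desmin of all muscle types, had 8.48 in MARCO-/- LPS and 15.7 in WT LPS, and 11.6 in MARCO-/- PBS and 6.94 in WT PBS. Between genotypes Des was under 2-fold, and so were the Z disc genes Myoz1 and Ldb3. All 5 genes had log2 ratios above 0 for MARCO-/- over WT with PBS (0.11 to 0.74) and below 0 with LPS (-2.36 to -0.89).

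Calcium handling genes did not share 1 pattern. Atp2a1, the calcium pump of fast fibres, had 3.38 in MARCO-/- LPS and 9.20 in WT LPS, and 4.08 in MARCO-/- PBS and 2.52 in WT PBS, which bounds it at 1.89-fold or more lower in MARCO-/- with LPS. Pvalb, the calcium buffer parvalbumin of fast fibres, had 3.24 in MARCO-/- LPS and 9.16 in WT LPS, and 6.64 in MARCO-/- PBS and 3.75 in WT PBS. Both followed the contractile genes at low intensities, and Trdn, which encodes triadin of the calcium store, did so between 3.02 and 6.49. Casq1, the calcium-binding protein calsequestrin of that store, stayed between 3.47 and 3.67.

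Ryr1 and Cacna1s, which encode the calcium release channel of the store and the voltage sensor that opens it, followed the treatment instead. Ryr1 had 5.35 in MARCO-/- LPS and 7.53 in WT LPS, against 57.7 in MARCO-/- PBS and 62.7 in WT PBS. It was 10.8-fold lower with LPS than with PBS in MARCO-/- and 8.33-fold lower in WT DC. Cacna1s had 39.2 in MARCO-/- LPS and 55.1 in WT LPS, against 13.6 in MARCO-/- PBS and 20.8 in WT PBS. It was 2.88-fold higher with LPS in MARCO-/- and 2.65-fold higher in WT DC. Between genotypes both genes were within 1.53-fold by their brightest probe sets. The LPS arrays did not overlap the PBS arrays for either gene. With so few arrays this carries little weight, and its share over all genes was not computed. The other probe set of Ryr1 lay near background and did not share the difference of the brighter one. It had 2.52 in MARCO-/- LPS and 5.32 in WT LPS, and 3.40 in MARCO-/- PBS and 2.68 in WT PBS. Its order was that of the contractile genes, with WT LPS alone above the median. Its log2 ratio was 0.99 for LPS over PBS in WT, and -1.08 for MARCO-/- over WT with LPS.

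Among the metabolic genes, Car3, a carbonic anhydrase of slow muscle and fat, had the widest range. It had 5.01 in MARCO-/- LPS and 255 in WT LPS, 50.9-fold lower in MARCO-/-. With PBS it had 79.9 in MARCO-/- and 2.67 in WT, at least 16.4-fold higher in MARCO-/-. Ckm, the creatine kinase of muscle, had 3.94 in MARCO-/- LPS and 26.8 in WT LPS, and 7.35 in MARCO-/- PBS and 3.65 in WT PBS. Mb, which encodes myoglobin of slow fibres and heart, had 3.11 in MARCO-/- LPS and 7.95 in WT LPS, and 4.30 in MARCO-/- PBS and 3.16 in WT PBS, so that WT LPS alone was above background and 1.63-fold or more above MARCO-/- LPS. Eno3, the muscle form of the glycolytic enzyme enolase, was bright on all arrays, with 148 in MARCO-/- LPS and 125 in WT LPS, and 167 in MARCO-/- PBS and 148 in WT PBS, and did not share the pattern. Pgam2 and Pygm, the muscle forms of phosphoglycerate mutase and glycogen phosphorylase, stayed below 4 on all arrays.

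For the 10 genes that were past 2-fold in opposite directions, WT LPS was set against MARCO-/- PBS, the array next to it in order. The WT LPS value was 2.32-fold to 3.81-fold higher, with a median of 3.0-fold, while the median over all genes was 1.01-fold. Myh1, Myh4, Mylpf and Acta1 had 2.32, 2.37, 2.42 and 2.54-fold, and Myl1 and Tnnt3 had 3.76 and 3.81-fold. These arrays differ in both genotype and treatment, and the choice of genes and of arrays was made after the values were seen.

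Of the 60 probe sets, 37 had a highest value above the median of all intensities. With PBS 12 of the 60 were past 2-fold upward in MARCO-/- over WT and 0 downward. With LPS 26 were past it downward and 0 upward, and all of these were among the 37. A high value on 1 array can give both the fold and a place among the 37, so this overlap is no support. No share over all probe sets was computed. At 1 probe set per gene, 0.760% of all genes were higher with PBS and 1.31% lower with LPS. Probe sets of 1 gene often disagreed in size. The other probe set of Myh4 was between 2.54 and 3.88 on all arrays, and 2 of the other 3 of Car3 lay below 4. A second probe set of Car3 had log2 ratios of 2.08 with PBS and -3.31 with LPS, and a second one of Myh1 had 1.88 and -3.16. No probe set of a member was past 2-fold against the direction of the others between genotypes.

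**Figure D4:**
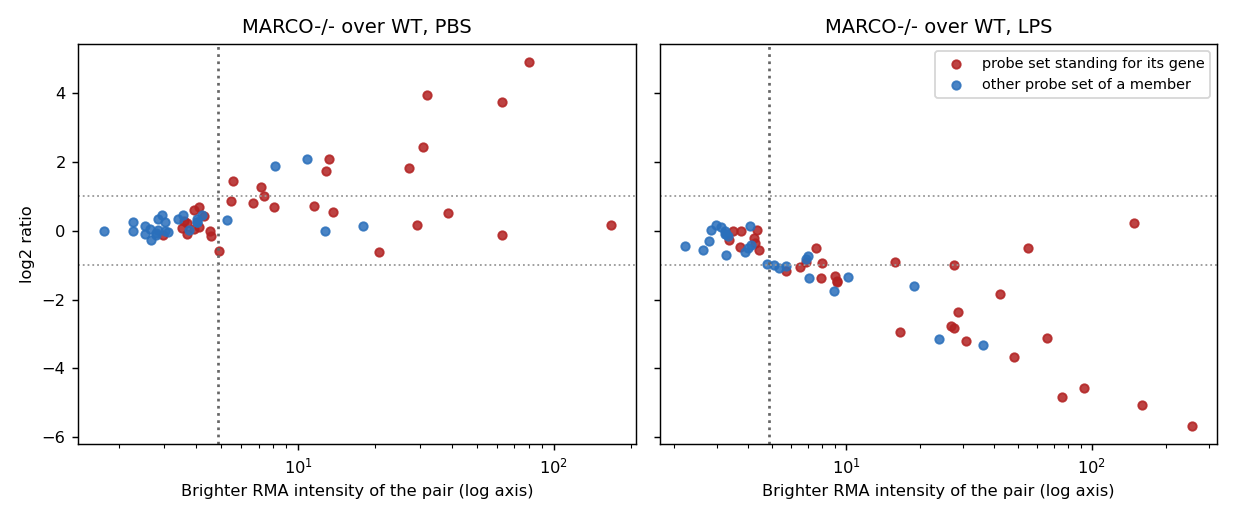
Ratio of MARCO-/- to WT on the log2 scale with PBS (left) and with LPS (right) for all 60 probe sets of the muscle genes, against the brighter of the intensities compared (log axis); red points stand for their gene, blue points are its other probe sets, the vertical dotted line is the median of all intensities and the horizontal dotted lines mark 2-fold. With PBS 12 probe sets lie on or above the upper line and none below the lower one, and with LPS 26 lie below the lower line and none above the upper one.

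Other genes of muscle were less often past 2-fold than the members. The members and this list were chosen with earlier results of these data known, so the contrast may be set by that choice. Of 50 further genes of muscle structure and metabolism, 44 were measured and 20 of these were above the median on any array. With PBS 1 of the 44 was higher in MARCO-/- (2.27%, against 0.760% of all genes) and none was lower. With LPS 5 were lower (11.4%, against 1.31% of all genes) and 1 was higher (2.27%, against 2.09%). Fhl1, a LIM-domain protein of striated muscle and other tissues, had 3.57 in MARCO-/- LPS and 30.0 in WT LPS, and 16.1 in MARCO-/- PBS and 5.62 in WT PBS. Tcap, the titin cap protein, had 3.22 in MARCO-/- LPS and 10.7 in WT LPS. Pfkm, the muscle subunit of phosphofructokinase, had 3.93 and 9.92 in these arrays, and Myot and Cmya5 were lower too. Myl4, the light chain of atria and of embryonic muscle, went the other way, with 12.9 in MARCO-/- LPS and 5.69 in WT LPS. Of 8 genes of satellite cells and myoblasts, among them Myod1, Myog and Pax7, Cdh15 alone was above the median on any array, and none was past 2-fold in any comparison.

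Isoforms that most cells express, such as beta-actin, non-muscle myosin and the ubiquitous calcium pump, had median log2 ratios of 0.01 with PBS and 0.07 with LPS over 15 measured genes. Of these, Car2 was higher in MARCO-/- with PBS and Pygl with LPS. Neither followed the fast-fibre genes, since Car2 had 148 in MARCO-/- LPS and 137 in WT LPS.

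Of the lists of other tissues, that of connective tissue moved together with the fast-fibre genes. The list was chosen with earlier results of these data known. The study itself reports several of its genes, Mgp and Postn among them, as higher in resting MARCO-/- DC. Its count with PBS is therefore no independent support. Of 11 connective tissue genes, 8 were past 2-fold upward in MARCO-/- with PBS and 9 downward with LPS, with medians of 2.57 and -4.18. Their summed intensity was 56.6 in MARCO-/- LPS and 2009 in WT LPS, and 634 in MARCO-/- PBS and 56.6 in WT PBS. For 10 of the 11, WT LPS was highest and MARCO-/- PBS next, as for 11 of the 13 fast-fibre genes, whose sums were 57.2 in MARCO-/- LPS and 438 in WT LPS, and 193 in MARCO-/- PBS and 71.9 in WT PBS. Col3a1, a collagen of loose connective tissue, had 12.1 in MARCO-/- LPS and 959 in WT LPS, and 315 in MARCO-/- PBS and 4.57 in WT PBS. Mgp, the matrix Gla protein, had 2.86 in MARCO-/- LPS and 233 in WT LPS, and 61.7 in MARCO-/- PBS and 3.03 in WT PBS. Of 6 smooth muscle genes Acta2, the actin of smooth muscle and myofibroblasts, had this order with 12.3 in MARCO-/- LPS and 162 in WT LPS, and 52.0 in MARCO-/- PBS and 8.42 in WT PBS. The defining smooth muscle genes Myh11, Cnn1, Actg2 and Lmod1 were below 4 on all arrays. Of 4 adipocyte genes, Fabp4 had 48.8 in MARCO-/- LPS and 104.5 in WT LPS, and 76.1 in MARCO-/- PBS and 14.4 in WT PBS, whereas Adipoq and Lep were below the median on all arrays. Retn, the resistin gene, was above it on all of them. It had 9.39 in MARCO-/- LPS and 10.4 in WT LPS, and 10.3 in MARCO-/- PBS and 9.58 in WT PBS. Retn thus had the same order, but differed between genotypes by only 1.08-fold with PBS and 1.11-fold with LPS. The part of these cells or tissues in the muscle values was not tested.

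**Figure D5:**
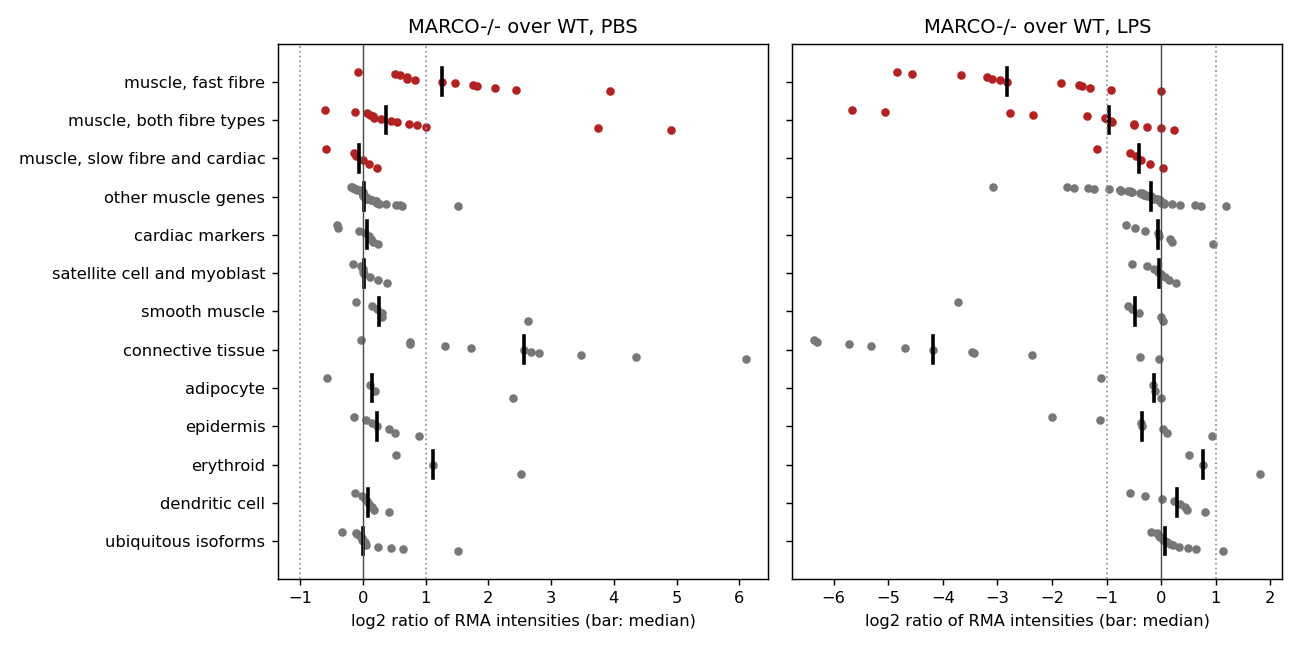
Ratio of MARCO-/- to WT on the log2 scale with PBS (left) and with LPS (right) for the genes of 13 lists; each point is 1 gene, muscle members are red, other lists grey, bars are medians and dotted lines mark 2-fold. The connective tissue genes lie on the same side as the fast-fibre genes, with medians of 2.57 and -4.18, and the medians of the cardiac, satellite cell and DC lists lie between -0.05 and 0.29.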

How the data were processed

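RNA from CD11c-selected splenic DC was hybridized to 4 Affymetrix Mouse Genome arrays, 1 per condition. The intensity values were background-corrected, normalized and summarized per probe set by the authors with RMAexpress before they were deposited, of a version that the sources used here do not give. RMA sets the arrays to a common distribution, and its values at background lie well above 0, which compresses ratios of dim genes. Of 45141 probe sets, 104 controls were left out, and 28898 had exactly 1 gene symbol in the platform annotation. The brightest probe set (by mean log2 value) stood for its gene. Ratios were called at 2-fold, the threshold of the methods. The genes, lists, rule for naming genes and settings were chosen with earlier results of these data known. Genes of other lists were named by size of ratio, up to 6 per list, and others beside small counts after their values were seen. Scripts were checked on simulated data. Python 3.11.15, numpy 2.4.6, pandas 2.3.3, matplotlib 3.10.9, R 4.3.3 and limma 3.58.1 (quantile normalization and cyclic loess) were used.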

Additional observations from a re-analysis of the deposited data

Results flagged for a closer look

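Of the muscle genes, 10 differed past 2-fold in opposite directions between genotypes, above WT with PBS and below WT with LPS in MARCO-/-. The difference between these effects was not tested, since each group has 1 array. It is given as the log2 ratio of MARCO-/- over WT with LPS minus that with PBS. It was -10.58 for Car3, -8.81 for Acta1, -8.78 for Myh4, -7.00 for Tnnc2 and -5.43 for Myl1. Myh1 had -5.30, Mylpf -4.92, Myh2 -4.41, Tnnt3 -4.10 and Ckm -3.77. Mylpf alone had all 4 values above the median of all intensities, so no order is read from the others. With values below that median raised to it, the difference was -9.71 for Car3, -8.72 for Acta1, -6.69 for Tnnc2, -6.67 for Myh4, -4.72 for Myl1 and -4.09 for Myh1. It was then -3.06 for both Ckm and Tnnt3, and -1.97 for Myh2. Over all 33 genes the median log2 ratio was -1.18 with LPS and 0.54 with PBS, a difference of -1.71, or -1.06 with values raised to the median.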

How the results depend on the processing

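No count, median or fast minus slow difference changed direction under any setting, and 125 of these values stayed within 1.5-fold of those above while 27 did not. Of single genes past 2-fold, Trdn changed sign for MARCO-/- over WT with LPS, at 0.022 without probe sets ending in x_at, s_at or a_at. Of 476 values of such genes under other settings, 406 were past 2-fold and 70 under it. No paired analysis was possible because each group has 1 array, and no replicate could be left out. A filter at a log2 value of 8 left none of the muscle genes. With 16 added to every intensity, MARCO-/- over WT gave 4 genes higher with PBS and 11 lower with LPS, LPS over PBS gave 9 higher in WT, and 0 higher and 5 lower in MARCO-/-. The medians were then -0.37 for MARCO-/- over WT with LPS, -0.17 for LPS over PBS in MARCO-/- and 0.35 in WT. The fast minus slow and cardiac difference, which was 1.32 and -2.42 for MARCO-/- over WT with PBS and LPS, and -1.37 and 2.70 for LPS over PBS in MARCO-/- and WT, became 0.30, -0.99, -0.25 and 0.79. With values below the median raised to it, it was 0.56, -1.83, -0.72 and 1.77, and the median for LPS over PBS in MARCO-/- was -0.20. From the mean of all probe sets it was -1.38 for MARCO-/- over WT with LPS and 1.63 for LPS over PBS in WT. Without probe sets ending in x_at, s_at or a_at it was 0.72 and -1.29 for MARCO-/- over WT with PBS and LPS and 1.45 for LPS over PBS in WT, with 6 genes higher in MARCO-/- over WT with PBS, and 8 lower for LPS over PBS in MARCO-/-. At 1.5-fold, 16 genes were higher and 2 lower in MARCO-/- with PBS, and at 3-fold, 0 were higher with LPS in MARCO-/-. Signal over background limits all of these, since 7 of 33 genes were never above the median, and adding a constant shrinks the ratios of dim genes by construction.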

Other observations

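Of the epidermal genes, Krt14 of basal keratinocytes had 2.45 in MARCO-/- LPS and 9.83 in WT LPS, and Krt5 had 7.64 in MARCO-/- LPS and 16.6 in WT LPS. With PBS Krt5 had 11.9 in MARCO-/- and 6.39 in WT. Of 7 epidermal genes these were the only ones past 2-fold between genotypes. Of 3 erythroid genes, 2 were past 2-fold upward in MARCO-/- with PBS, as the muscle genes were, but with LPS 1 was higher and 0 were lower. Slc4a1, the anion exchanger of red cells, had 7.90 in MARCO-/- LPS and 5.54 in WT LPS, and 76.7 in MARCO-/- PBS and 13.4 in WT PBS. Alas2 of heme synthesis had 29.4 in MARCO-/- LPS and 8.35 in WT LPS, and 39.5 in MARCO-/- PBS and 18.2 in WT PBS. Of the cardiac markers, Myl7, an atrial light chain, followed the treatment, with 7.07 in MARCO-/- LPS and 11.1 in WT LPS, against 3.27 in MARCO-/- PBS and 3.19 in WT PBS. Myl7 and Synpo2 were picked after their values were seen. Synpo2, a Z disc protein also of smooth muscle, did so too, with 46.3 in MARCO-/- LPS and 45.4 in WT LPS, against 6.02 in MARCO-/- PBS and 5.16 in WT PBS.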
